A study of Mus musculus with 145 samples.

Results

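Receptor tyrosine kinases are the cell-surface proteins through which growth factors reach PI3K. The insertion data described here cover 45 mouse genes of this class, listed by symbol, and 35 of them had a gene region among the 13391 gene regions of the authors' deposited table. The other 10 (Erbb2, Mst1r, Fgfr3, Fgfr4, Pdgfrb, Tyro3, Epha1, Epha2, Epha8 and Ephb6) were not analysed here. The 35 regions ran from 20.5 kb for Ephb3 to 1070 kb for Erbb4 and covered 7.69 Mb together.

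Mice of both groups carried the same 4 alleles. WAP-Cre is a Cre recombinase driven by the whey acidic protein promoter, which late pregnancy switches on in mammary cells, LSL-PB is a Cre-dependent piggyBac transposase, LSL-PIK3CA(H1047R) is a Cre-dependent activating mutant of the PI3K alpha catalytic subunit, and ATP1 is the transposon donor. The untreated group held 94 tumours of the mammary fat pad from 23 mice, with each library counted as a tumour. By title, untreated libraries 58 and 88 came from the same mouse and gland, the latter with an added suffix. Both were counted, and neither had a receptor hit. The resistant group held 51 tumours from 26 mice by title, which had reached 250 mm3, were given 30 mg/kg of the PI3K alpha inhibitor BYL719 (alpelisib) each day, and grew over at least 3 weeks of treatment. Both groups thus carried the mutant kinase and the mobile transposon, and only the drug differed by label. The sources used here give neither age nor strain.

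On binding a ligand, a receptor tyrosine kinase dimerises and phosphorylates its own tail, and the phosphotyrosines recruit PI3K, adaptors of the RAS pathway and phospholipase C. Cbl ubiquitin ligases, phosphatases and ERRFI1 damp the signal. ERBB receptors and MET act in mammary epithelium, and reactivation of receptor signalling is a known route by which tumours escape PI3K inhibitors. The piggyBac transposon inserts at TTAA, and in this kind of screen it can drive a gene from its own promoter when it lies upstream in the same orientation, or interrupt the transcript in either orientation.

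A tumour was counted as hit in a gene when its library had at least 10 reads at a site inside the gene region, which reaches from up to 2 kb upstream of the gene to its end. Each position and strand was kept only in the tumour with most reads there. By this rule 330 insertions lay in the receptor regions, 149 in resistant and 181 in untreated tumours, and 318 of them (96.4%) lay at TTAA against 96.3% of all kept insertions. Libraries held 51 to 1604365 reads, with a median of 136932 in resistant and 48339 in untreated tumours, and the median number of kept insertions per tumour was 473 and 431. No insertion was kept in 3 tumours (1 resistant and 2 untreated), which stayed in the counts as not hit. The untreated ones include library 88, named above. Titles came in 4 forms and none held both groups: TgTum (61 tumours, median 729 kept insertions) and tgTum (33, median 258) in the untreated group, Tgtumor (35, median 637) and Mouse (16, median 241.5) in the resistant group. Differences between groups and between title forms can therefore not be told apart.

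The insertions that carried most reads show what a hit looks like. The following 9 insertions were those among the 20 best-covered of their tumour, shown because the results turn on how much of a library an insertion took up. A second deposited value per site, undefined in the headers, ran from 1 to 247 among these 9. It was 1 at 86.1% of receptor insertions and at 85.7% of all kept insertions. Each line gives the site in mm10, then its 8 bases on the strand of the insertion, 5′ to 3′, with the TTAA in capitals.
Met, chr6:17481464, resistant tumour 20: TTAAgacc
Flt3, chr5:147338389, untreated tumour 57: TTAAatat
Epha5, chr5:84154238, resistant tumour 25: TTAAagaa
Epha6, chr16:60132871, resistant tumour 31: TTAAgtac
Erbb4, chr1:68444196, resistant tumour 12: TTAAacta
Epha5, chr5:84379473, resistant tumour 48: TTAAaatt
Erbb4, chr1:68978147, untreated tumour 42: TTAAtact
Ros1, chr10:52169422, untreated tumour 43: TTAAattg
Epha6, chr16:59825909, untreated tumour 46: TTAAaaac

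The best-covered insertion of all was in Met, in a resistant tumour. Met encodes the receptor of hepatocyte growth factor, and its region is chr6:17461957-17573980. In resistant tumour 20 the site above had 6202 of 33715 reads (18.4% of the library) and ranked 1st of the 637 kept insertions of that tumour. It lay in the orientation of the gene, 19.5 kb from the upstream end of the region, and the next library had 14 reads at the same position. Resistant tumour 11 held the other Met insertion, with 41 reads, also in the orientation of the gene and 3.00 kb from the upstream end. No untreated tumour was hit in Met (0 of 94, 95% Clopper-Pearson upper limit 3.85%), against 2 of 51 resistant tumours (3.92%, 0.478 to 13.5), where 1.34 and 2.14 tumours were expected from region length in resistant and untreated tumours. With 2 tumours hit, Met was below the minimum of 5 for a test, and it was singled out after its values were seen. In the authors' deposited table, which counts tumours by a rule other than the one used here, Met was hit in 5 resistant and 6 untreated tumours.

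**Figure D1:**
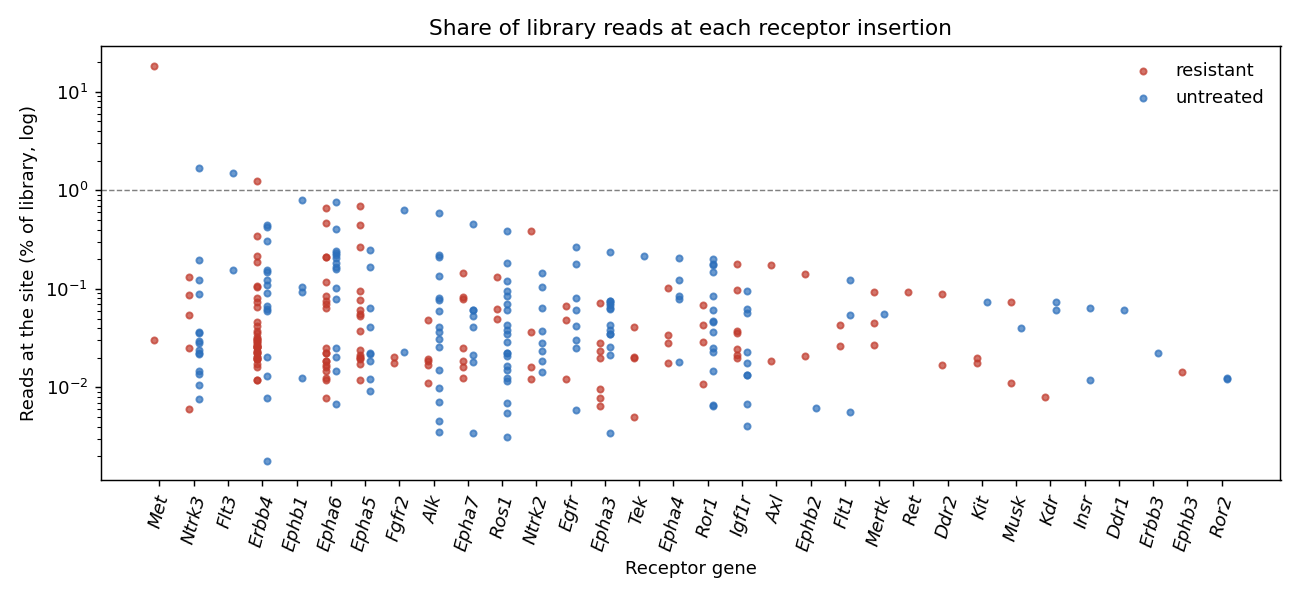
Reads at each of the 330 receptor insertions as a percentage of all reads of its library (log axis), by gene, with resistant tumours in red and untreated tumours in blue. The Met insertion of resistant tumour 20 sits at 18.4%, 3 others lie above the dashed line at 1%, and the rest lie below it.

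Only 4 of the 330 insertions reached 1% of their library (1.21%, against 0.794% of all kept insertions in gene regions). Besides Met these were in Ntrk3, Flt3 and Erbb4. The Ntrk3 insertion of untreated tumour 67 had 142 of 8528 reads, or 1.67% of its library, and lay in the orientation of the gene. The Flt3 insertion of untreated tumour 57 had 656 reads, or 1.51% of its library, ranked 5th, and lay in the orientation of the gene. In all, 10 libraries had reads at its position and strand, the next one with 4 reads. The other Flt3 insertion, in untreated tumour 15, had 357 reads and the same orientation. No resistant tumour was hit in Flt3, the receptor of FLT3 ligand on blood progenitors. In the authors' deposited table, with its other counting rule, Flt3 was hit in 0 resistant and 14 untreated tumours. The median receptor insertion held 0.0361% of its library, close to the 0.0425% of all insertions in gene regions.

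In the comparison of the groups no receptor passed the test. Shares of tumours hit were compared by two-sided Fisher exact tests with Benjamini-Hochberg adjustment over the 2557 gene regions hit in at least 5 tumours, and 0 of the 15 receptors that entered were called, where 0% of all regions tested were. At an unadjusted p under 0.05 there were 2 receptors, Epha5 and Ros1, where 2.97% of all regions tested passed. Of the 15, 7 had the higher share in resistant tumours and 8 the lower, with a median difference of -0.67 percentage points against 0.56 over all regions tested. A further 17 receptors were hit in 1 to 4 tumours and 3 (Fgfr1, Pdgfra and Ephb4) in none.

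**Figure D2:**
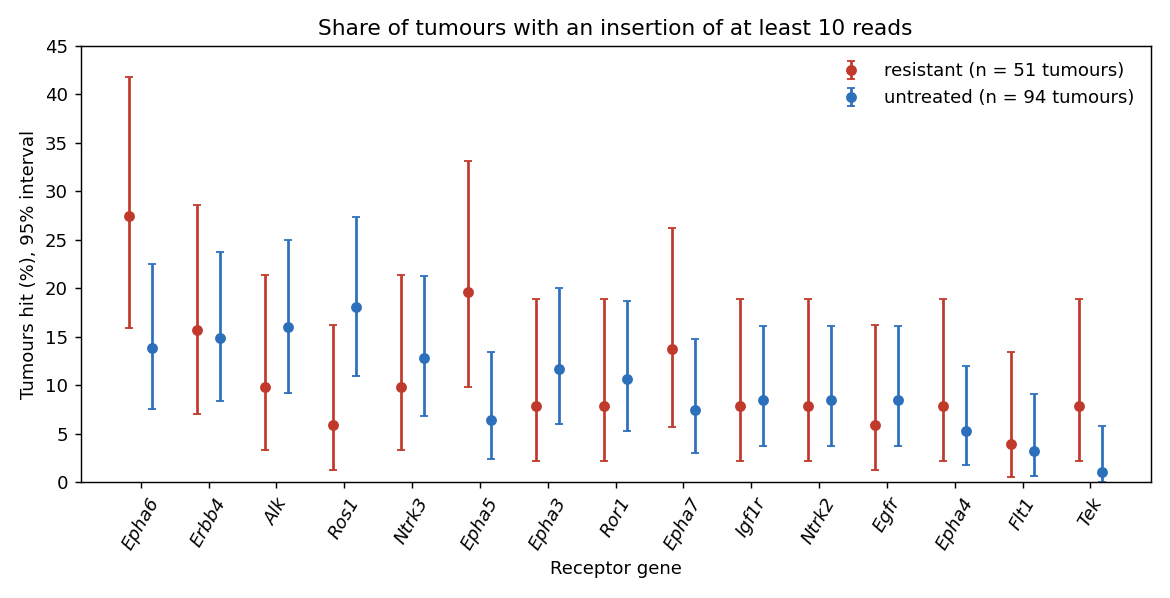
Percentage of tumours with an insertion of at least 10 reads in each of the 15 receptor genes hit in at least 5 tumours, for 51 resistant (red) and 94 untreated (blue) tumours, with 95% Clopper-Pearson intervals. Epha6 and Epha5 are highest in the resistant tumours at 27.5% and 19.6%, Ros1 is highest in the untreated tumours at 18.1%, and the intervals of the groups overlap for all 15 genes.

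The ephrin A receptors were the most often hit receptors in the resistant group. They bind ephrins anchored on neighbouring cells and guide cell contact and axon growth. At least 1 of the 5 with a region was hit in 22 of 51 resistant tumours (43.1%, 29.3 to 57.8) and in 32 of 94 untreated tumours (34%, 24.6 to 44.5). From region length and the number of insertions in each tumour, 15.8 and 26.8 tumours were expected. Counted by gene, the ephrin A receptors had 39 hits in resistant tumours against 20.7 expected (1.88 times) and 42 against 33.7 in untreated tumours (1.24 times). Over all gene regions the ratio was 1.23 in each group, and over regions of at least 100 kb it was 1.10 and 1.12. The 4 ephrin B receptors with a region had 3 hits against 7.54 expected and 5 against 12.1. The families were grouped with results known, so these ratios are a description.

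Epha5 was hit in 10 of 51 resistant tumours (19.6%, 9.82 to 33.1) and 6 of 94 untreated tumours (6.38%, 2.38 to 13.4), from 9 and 4 mice. Its best-covered insertion per hit tumour had 30 to 4709 reads in resistant tumours (median 62) and 24 to 374 in untreated ones (median 173.5), so the ranges overlap. The difference of 13.2 percentage points gave p = 0.024 in the Fisher exact test and an adjusted p of 0.997 over all regions. With reads thinned to 20000 per library, 7 of 48 resistant and 2 of 70 untreated tumours were hit (p = 0.030, Fisher exact test). Thinning left out the 3 resistant and 24 untreated libraries with fewer reads. Given the number of insertions per tumour, the conditional binomial test over all tumours gave p = 0.068. The difference in Epha5 was 7.51 percentage points at a minimum of 50 reads (p = 0.166), 8.41 with shared positions dropped (p = 0.113) and 10.2 within TgTum and Tgtumor (p = 0.217, all by the Fisher exact test). Permuting the group labels over mice gave p = 0.033 on the share of tumours, and 0.171 on the mean share per mouse. All 6 untreated hits were in libraries of the TgTum form, while the resistant hits were split between Tgtumor (7) and Mouse (3).

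Epha6 was the receptor hit in most tumours of the 35, in 14 resistant (27.5%, 15.9 to 41.7) and 13 untreated (13.8%, 7.57 to 22.5) tumours, with p = 0.072 in the Fisher exact test and an adjusted p of 1. Its region is long (954 kb), and 9.35 and 15.5 tumours were expected. The best-covered insertion per hit tumour had 12 to 1091 reads in resistant tumours (median 36.5) and 13 to 371 in untreated tumours (median 66). All 14 resistant hits were in the Tgtumor form and none in the 16 libraries of the Mouse form. Within the title forms with more insertions per library, TgTum and Tgtumor, the difference was 26.9 percentage points (p = 0.0047, Fisher exact test, adjusted p = 1), and within tgTum and Mouse it was -15.2 percentage points. Over all alternatives the adjusted p of Epha6 ran from 0.852 to 1.

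Epha7 had 7 hits in each group, which was 13.7% of resistant and 7.45% of untreated tumours (p = 0.247, Fisher exact test). Its 156 kb region was expected to be hit in 1.85 resistant and 2.96 untreated tumours. Of its 15 insertions, 4 from 4 tumours lay within 982 bp of each other, 2990 to 3972 bp past the RefSeq start of the gene at chr4:28813131. They are printed because no other receptor had insertions of more than 2 tumours within 1 kb. The lines give position, strand and tumour, with the TTAA in capitals.
Epha7, chr4:28816121, plus, resistant tumour 13: TTAAttga
Epha7, chr4:28816325, plus, untreated tumour 66: TTAAaatt
Epha7, chr4:28816672, minus, resistant tumour 2: TTAAtatt
Epha7, chr4:28817103, plus, resistant tumour 40: TTAAatgt
They had 81, 24, 35 and 498 reads in that order, used 4 different TTAA sites, and 3 of the 4 lay in the orientation of the gene. The cluster was noticed after the values were seen. Of the 2557 regions hit in at least 5 tumours, 113 (4.42%) had insertions of at least 4 tumours within 1 kb, so such a cluster was not particular to Epha7.

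Epha3 was hit in 4 resistant and 11 untreated tumours and Epha4 in 4 and 5. Neither passed the test between groups (p = 0.576 and 0.720, Fisher exact test). Among the ephrin B receptors Ephb1, with a 435 kb region, was hit in 0 resistant and 4 untreated tumours where 4.79 and 7.77 were expected. Ephb2 was hit in 3 tumours and Ephb3 in 1.

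**Figure D3:**
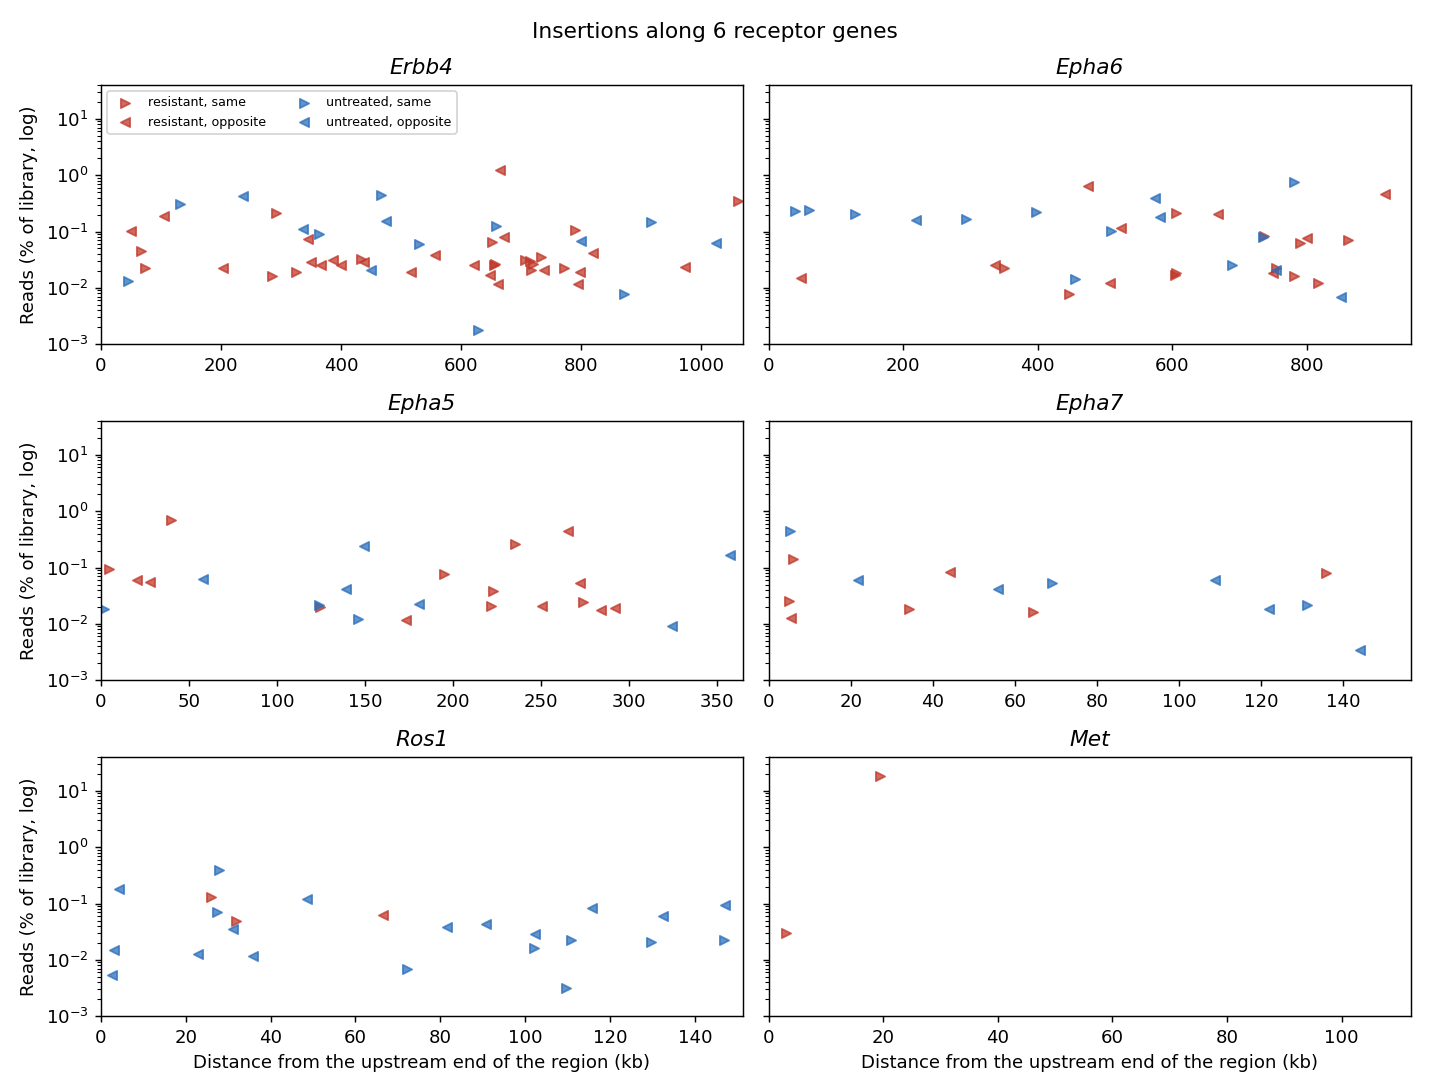
Insertions along the regions of Erbb4, Epha6, Epha5, Epha7, Ros1 and Met, with distance from the upstream end of the region in kb on the x axis and percentage of library reads on a log y axis. Triangles to the right are insertions in the orientation of the gene and triangles to the left in the opposite one, red for resistant and blue for untreated tumours. The 4 Epha7 insertions near 5 kb and the single Met insertion at 18.4% stand out, while the Erbb4 insertions are spread over the region.

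Of the ERBB receptors, which bind EGF-like ligands and neuregulins, Erbb4 was hit in 8 of the resistant tumours (15.7%) and in 14 of the untreated ones (14.9%). Its region, chr1:68039966-69110059, is the longest of the 35, and 10.2 and 17 tumours were expected. The groups differed by 0.79 percentage points (p = 1, Fisher exact test). Hits per tumour and insertions per gene gave different pictures for Erbb4, because resistant tumour 12 alone held 30 of the 38 resistant insertions. In that tumour Erbb4 had 28 insertions per Mb against 0.869 per Mb on the rest of chromosome 1. Flanking stretches of 1 Mb on each side of the region held 9 insertions of that tumour. The 30 insertions had 11 to 1162 reads (median 24.5), 28 of them under 100 reads, with 12 in the orientation of the gene and 18 opposite. The other 7 resistant tumours hit in Erbb4 held 8 insertions together, and no other tumour held more than 2. Since a tumour counts once per gene, leaving out resistant tumour 12 turned the difference only to -0.89 percentage points.

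Egfr, the EGF receptor (chr11:16750203-16913907), was hit in 3 resistant and 8 untreated tumours, 5.88% and 8.51% (p = 0.747, Fisher exact test). The 3 resistant tumours had 28, 63 and 147 reads at their insertions, and the 8 untreated tumours had 10 to 190 (median 22.5). Erbb3, which has little kinase activity of its own and binds PI3K through its tail, was hit in 1 untreated tumour with 14 reads. It lies on chromosome 10, which held a median of 20.6% of the kept insertions in resistant and 25% in untreated tumours.

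Igf1r, the receptor of IGF1, was hit in 4 resistant and 8 untreated tumours (7.84% and 8.51%, p = 1, Fisher exact test), and Insr, the insulin receptor, in 0 and 2. The hit tumours had 12 to 316 reads in Igf1r when resistant and 10 to 178 when untreated, and the ranges overlap.

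Of the 15 receptors tested, Ros1 had the largest deficit in resistant tumours. Ros1, Alk, Ntrk2, Ntrk3 and Ret are receptors best known as fusion partners in cancer or as neurotrophic receptors, and all 5 had a region. Together they were hit in 13 tumours of the resistant group (25.5%, 14.3 to 39.6) and in 36 of the untreated group (38.3%, 28.5 to 48.9), where 17.2 and 31.2 were expected. Ros1 was hit in 3 of 51 resistant tumours (5.88%, 1.23 to 16.2) and 17 of 94 untreated tumours (18.1%, 10.9 to 27.4), from 3 and 13 mice. The difference of -12.2 percentage points gave p = 0.046 in the Fisher exact test and an adjusted p of 0.997. Ros1 lies on chromosome 10 (chr10:52045926-52197244), and given the insertions each tumour had on that chromosome the conditional binomial test gave p = 0.150. With reads thinned to 20000 per library, 2 of 48 resistant and 6 of 70 untreated tumours were hit in Ros1, a difference of -4.40 percentage points (p = 0.470, Fisher exact test). At a minimum of 50 reads the difference was -3.53 (p = 0.494, Fisher exact test), and with the 100 best-covered sites per tumour it was -1.06. With the mouse as the unit, 3 of 26 resistant and 13 of 23 untreated mice were hit (p = 0.0018, Fisher exact test, adjusted p = 0.216), though untreated mice gave more tumours each. Over all alternatives the adjusted p of Ros1 ran from 0.216 to 1, and that of Epha5 from 0.594 to 1. Of the untreated hits 16 were in the TgTum form and 1 in tgTum. Within tgTum and Mouse the direction was turned, with 1 tumour hit on each side. The tgTum hit, in untreated tumour 77, had 90 reads, and the next library had 28 reads at the same position. The other receptor hits of tumour 77 were also at positions with reads in a second library. Reads were 125 against 68 in Epha6, 68 against 38 in Erbb4, 152 against 51 in Epha4 and 19 against 4 in Alk.

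Alk was hit in 5 resistant and 15 untreated tumours (9.80% and 16%, p = 0.450, Fisher exact test). Reads at the best Alk insertion were 12 to 45 in resistant tumours and 11 to 319 in untreated tumours, so at a minimum of 50 reads no resistant and 9 untreated tumours were hit (p = 0.027, Fisher exact test, adjusted p = 0.986). Over all alternatives the adjusted p of Alk ran from 0.276 to 1. Ntrk3, the receptor of neurotrophin 3, was hit in 5 resistant and 12 untreated tumours (9.80% and 12.8%, p = 0.788, Fisher exact test). Ntrk2, the receptor of BDNF, was hit in 4 and 8 (7.84% and 8.51%). Ret, the GDNF receptor kinase, was hit in 1 resistant tumour with 17 reads.

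Among the 30 receptors with a RefSeq promoter window, Axl held the one insertion that fell inside it. Such a window is the 250 bases before and 50 after a gene start. AXL binds GAS6 and is known for a part in drug resistance of carcinomas. Resistant tumour 37 had 78 reads at chr7:25788788 on the plus strand, opposite to the gene and 55 bp upstream of the RefSeq start at chr7:25788733. The window is chr7:25788684-25788983 on the minus strand (RefSeq, GRCm38.p6), printed here 5′ to 3′ with the TTAA that was used in capitals. It was chosen after the values were seen.
Axl promoter window: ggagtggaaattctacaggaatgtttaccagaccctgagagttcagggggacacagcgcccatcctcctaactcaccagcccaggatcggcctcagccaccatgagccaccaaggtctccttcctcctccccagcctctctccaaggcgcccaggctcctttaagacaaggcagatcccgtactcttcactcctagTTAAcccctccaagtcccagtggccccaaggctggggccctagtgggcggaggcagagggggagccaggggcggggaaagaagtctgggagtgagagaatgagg
The window holds 2 TTAA in all (searched as TTAA, which reads the same on both strands), and 52.4% of 32851 RefSeq promoter windows of the same length hold at least 1. Resistant tumour 33 held the other Axl insertion, with 15 reads, also opposite to the gene. No untreated tumour was hit (0 of 94, upper limit 3.85%), and 0.418 and 0.665 tumours were expected in the groups. Its relative Mertk was hit in 1 tumour of each group.

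The receptors of platelet-derived growth factor, stem cell factor, FLT3 ligand and VEGF with a region had 5 gene hits in resistant tumours against 4.99 expected, and 8 against 7.96 in untreated tumours. Tek, the angiopoietin receptor of endothelium, was hit in 4 resistant tumours, with 22, 26, 60 and 81 reads, and in 1 untreated tumour, with 239 reads (7.84% and 1.06%, p = 0.052, Fisher exact test, adjusted p = 0.997), where 1.64 and 2.61 were expected. With reads thinned to 20000 per library, none of 48 resistant and 1 of 70 untreated tumours were hit in Tek. Flt1, a VEGF receptor, was hit in 2 and 3 tumours. Kit, the stem cell factor receptor, was hit in 2 resistant tumours, with 23 and 27 reads, and 1 untreated tumour, with 78 reads. All 3 Kit insertions lay in the orientation of the gene. Kdr, the main VEGF receptor, was hit in 1 and 2 tumours, and Fgfr2 in 1 and 2.

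Among the remaining receptors Ror1, which binds WNT5A, was hit in 4 resistant and 10 untreated tumours (p = 0.771, Fisher exact test), and Ror2 in 0 and 2. A Ror1 insertion of untreated tumour 38 had 119 reads, and the next library had 99 at the same position. Musk, the agrin-responsive receptor of the neuromuscular junction, was hit in 2 and 1. Of the collagen receptors, Ddr2 was hit in 2 resistant tumours, with 26 and 604 reads, and Ddr1 in 1 untreated tumour.

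At 3 TTAA sites in the receptors, insertions of different tumours lay on opposite strands. In Epha6, untreated tumour 35 (66 reads) and resistant tumour 31 (37 reads) shared the TTAA that starts at chr16:59853266. The others were in Igf1r (resistant tumour 11 and untreated tumour 35) and in Ror1 (untreated tumours 3 and 52). Insertions at 1 position and strand were assigned to a single tumour by rule, so only such opposite-strand pairs could be seen.

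Longer regions were hit in more tumours. Over the 35 receptors the Spearman correlation of length with tumours hit was 0.848, given as a description, since all points come from the same libraries. The observed number of gene hits was 98 in resistant tumours against 89.9 expected from length and insertions per tumour (1.09 times) and 158 against 150.3 in untreated tumours (1.05 times). All gene regions together had 1.23 times the expected number in each group. Restricted to regions of at least 100 kb, the receptors had 1.08 and 1.09 times the expected number and all gene regions 1.10 and 1.12 times.

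**Figure D4:**
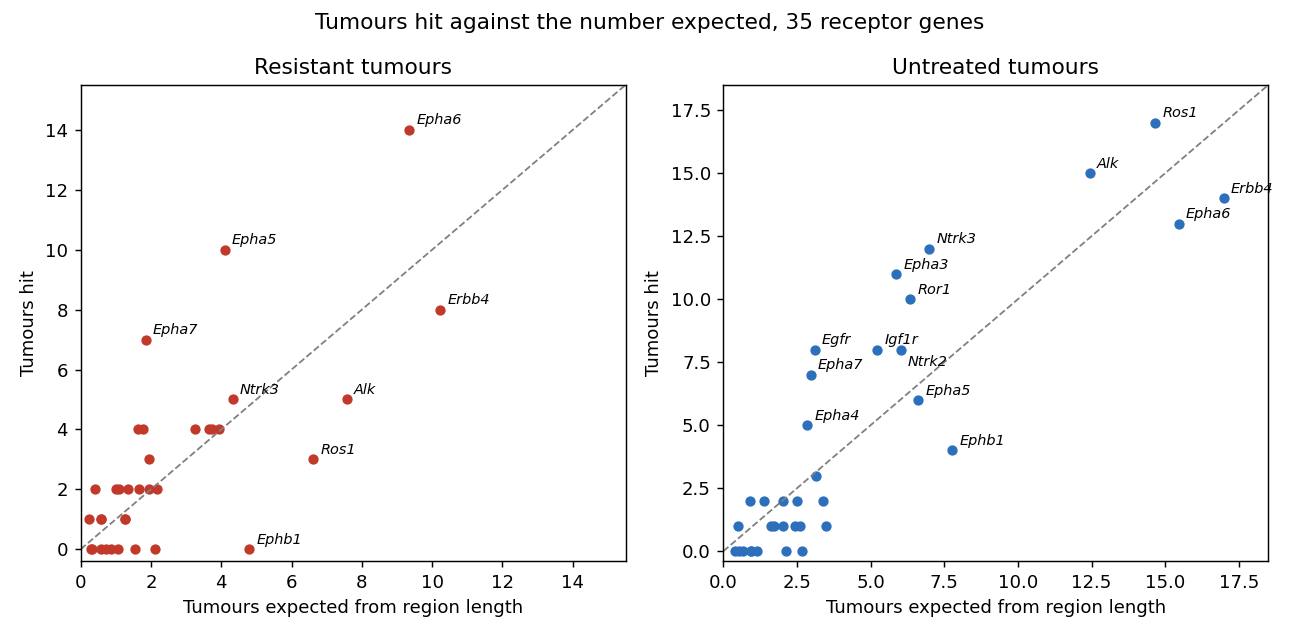
Tumours hit (y axis) against tumours expected from region length and insertions per tumour (x axis) for the 35 receptor genes, in resistant (left) and untreated (right) tumours, with the dashed line marking equality. Epha5 (10 against 4.09) and Epha7 (7 against 1.85) lie farthest above the line in number of tumours in the resistant group, and Ephb1 lies below it in both groups.

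No receptor was hit more often than length allows after adjustment. In the one-sided exact Poisson-binomial test, adjusted over 13370 regions, 0 of 35 receptors were called in resistant tumours, where 0.628% of all regions were, and 0 of 35 in untreated tumours, where 1.2% were. At an unadjusted p under 0.05 the resistant group had 2 receptors, against 7.11% of all regions. These were Epha7 with 7 hits against 1.85 expected (p = 0.002, adjusted p = 0.150) and Epha5 with 10 against 4.09 (p = 0.004, adjusted p = 0.253). The untreated group had 4, against 9.3% of all regions: Egfr with 8 against 3.09 (p = 0.011, adjusted p = 0.261), Epha7 with 7 against 2.96 (p = 0.027), Epha3 with 11 against 5.87 (p = 0.028) and Ntrk3 with 12 against 7.0 (p = 0.040). Ros1, on chromosome 10, had 17 hits against 14.7 expected in untreated tumours (p = 0.282, same test) and 3 against 6.61 in resistant tumours. In the authors' deposited table, whose gene-centred test is of an unstated method, the signed −log10 p score of Ros1 was 11.24 in untreated and 1.78 in resistant tumours. The other receptors with scores beyond 3 in size were Epha4 (3.14), Erbb4 (-7.39) and Epha6 (-5.09), all in untreated tumours. In resistant tumours Ros1 had the highest score, ahead of Epha5 at 1.48, and Ephb1 the lowest at -0.99.

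No receptor had a called bias of orientation. These tests count insertions, and several insertions can come from the same tumour, so that they are not independent. Of the 330 insertions 159 lay in the orientation of the gene and 171 opposite, 74 and 75 in resistant and 85 and 96 in untreated tumours. In the exact binomial test over regions with at least 5 insertions, 0 of 15 receptors were called, where 0.116% of 2578 regions were, and 0 passed without adjustment, against 2.72% of all regions. Between the groups the Fisher exact test called 0 (0% of all regions), and 0 passed without adjustment, against 1.36% of all regions. For Erbb4, resistant tumour 12 gave 12 insertions in the orientation of the gene and 18 opposite, all other tumours gave 14 and 9, and without that tumour 0 receptors were called as well. Along the region 114 insertions fell in the first of 3 equal parts, 116 in the middle part and 100 in the last. Epha3 had 13, 4 and 4 in these parts and Epha4 2, 7 and 0. Only 4 insertions lay in the first 2 kb of a region, 1 each in Kit, Axl, Alk and Epha5.

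Counted by tumour, at least 1 receptor was hit in 35 of 51 resistant tumours (68.6%, 54.1 to 80.9) and 62 of 94 untreated tumours (66%, 55.5 to 75.4), where 33.6 and 59.7 were expected. The number of receptors hit per tumour ran from 0 to 10 with a median of 1 in both groups. The tumours with 10 receptors hit were resistant tumour 11, with 5.99 expected from its 2641 insertions, and untreated tumour 35, with 4.71 expected from its 2043. Most hits were single insertions, since 222 pairs of tumour and receptor had 1 insertion, 22 had 2, 10 had 3, 1 had 4 and the Erbb4 pair of resistant tumour 12 had 30. The 3 Mertk insertions of resistant tumour 37 lay at adjacent bases of the minus strand, chr2:128740264 to chr2:128740266. They were counted as 3 here, and whether they are 1 insertion was not tested.

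**Figure D5:**
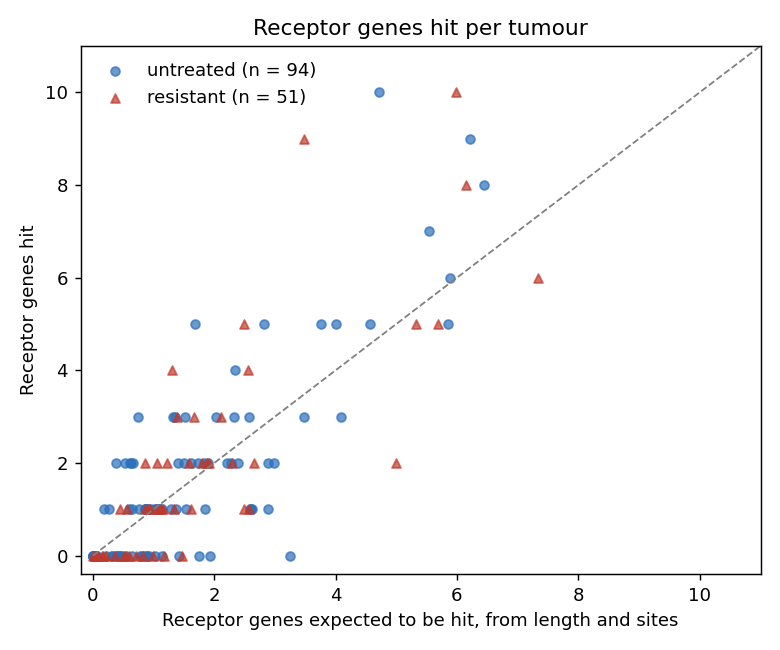
Number of receptor genes hit in each tumour (y axis) against the number expected from region length and the tumour's insertions (x axis), for 94 untreated (blue circles) and 51 resistant (red triangles) tumours, with the dashed line marking equality. Points of both groups lie on both sides of the line, and the highest values are 10 in 1 tumour of each group.

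Genes that act with the receptors were counted in the same way. Regions existed for 6 of 13 other receptor tyrosine kinases, 42 of 69 ligands, 13 of 21 adaptors and 14 of 19 inhibitors. Of these 1, 14, 4 and 7 entered the comparison of the groups, and 0 in each list had an unadjusted p under 0.05 (2.97% of all regions tested). None was called recurrent in resistant or untreated tumours, where 0.628% and 1.2% of all regions were, so that lists of this size had little room for a call. Hits against those expected in resistant and untreated tumours were 1.01 and 1.74 times for the other receptors, 1.14 and 1.22 for ligands, 1.13 and 0.836 for adaptors and 1.45 and 1.67 for inhibitors. The genes of the ligand list hit in most tumours were Nrg3, a neuregulin that binds ERBB4 (9 resistant and 17 untreated tumours), Fgf12 (10 and 12) and Fgf14 (4 and 13). Fgf12, Fgf13 and Fgf14 belong to the FGF family but stay inside the cell and are not secreted ligands, and without them the ratios of the list were 1.14 and 1.28. The adaptor Vav3 was hit in as many tumours as Fgf14 (8 and 9).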

How the data were processed

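Splinkerette PCR libraries of transposon-flanking genomic DNA from 94 untreated and 51 resistant tumours were used. The deposited site table gave whole-number read counts per library at 198107 sites in mm10, a build named in the submitters' processing notes, and the authors did not scale them as far as the values show. A further deposited column per library, undefined in the file headers and of another kind, served only in an alternative and for the values given above. Per the file headers, the authors' region table gave the count of tumours hit and a signed −log10 p score per group. The title of the series speaks of ATAC-seq, but its protocols describe insertion mapping. For the aligner and site caller, nothing was given in the sources used here. Without gene models, no insertion was assigned to an exon or intron.

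The receptors and all gene lists and families were chosen with earlier results of these data known. Gene regions were named through their Entrez identifiers. Gene strands came from RefSeq promoters for 30 receptors and from the upstream extension of the region for 5. Hits, at 10 reads or more, left 101066 insertions. Of the 16 sites at which most libraries had reads, 0 lay in the receptors. Tests were two-sided Fisher exact tests, one-sided exact Poisson-binomial tests with chromosome 10, which holds an excess of insertions, modelled apart, and two-sided exact binomial tests of orientation, with Benjamini-Hochberg adjustment over all gene regions tested and a threshold of 0.05. Code was tested on simulated data and ran in Python 3.11.15 with numpy 2.4.6, scipy 1.17.1 and pandas 2.3.3. Receptors hit in at least 5 tumours or at an unadjusted p under 0.05 were each described, in varying detail. The 3 pathway genes hit in most tumours were named. Reads are PCR products and were not collapsed to molecules here, so intervals cover counting of tumours only. Whether the undefined column counts molecules is not stated. Tumours of a mouse are not independent: titles name 49 mice, the labels state another number for the study, and permutations over mice used 100000 resamples.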

Additional observations from a re-analysis of the deposited data

How the results depend on the processing

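The 4 counts of receptors called (between groups, recurrent in resistant tumours, recurrent in untreated tumours and by orientation) were 0 under all 22, 21, 21 and 17 alternatives run, where the share of all regions called leaves little room for a call among so few genes. The share of tumours with any receptor hit differed by 2.67 percentage points between the groups and moved with several settings. The difference was 7.43, 3.61 and 10.7 at read minimums of 20, 50 and 100, 11.5 and 3.44 with the 100 and 300 best-covered sites per tumour, and 13.6 with the undefined column at 2 or more. It was 10.3 with the TgTum and Tgtumor forms only. It turned to -3.00 with sites of at least 0.1% of the library, -7.92 with reads thinned to 20000 (48 resistant and 70 untreated libraries kept) and -17.2 with the tgTum and Mouse forms only. The cause of these shifts was not tested. With the tgTum and Mouse forms only, the Ros1 difference was reversed, at 3.22 percentage points. Over the 15 tested receptors 71 of 330 alternative differences changed sign and 0 were called. Counts over all gene regions also moved. Recurrent regions numbered 84 in resistant and 161 in untreated tumours, 12 and 28 at a minimum of 100 reads, 5 and 39 with the expectation taken from the other group, and 3 and 5 with the tgTum and Mouse forms only. The comparison of the groups called 0 of the 2557 regions tested. It called 1 region with sites of at least 0.1% of the library and 14 with shared positions kept in every tumour. None was a receptor, and so few calls left little room for a receptor among them. Leaving out resistant tumour 12 or chromosome 10 was chosen after seeing the data. No paired analysis was possible because the groups share no mouse and their replicate numbers were given in accession order.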
